A study of Homo sapiens with 8 samples.

Results

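The genes described here build the nuclear pore complex, the channel through the nuclear envelope, or carry cargo through it. They were measured in SQ20B cells, an established line from a human head and neck squamous cell carcinoma, in normoxia and after 16 h in 0.5% O2. Each condition had 4 replicates, grown in the same medium, and the table analysed holds 1 value per transcript and condition over those replicates, without a measure of their spread. A gene was taken as a member when its symbol was NUP followed by a digit, KPNA, KPNB, or IPO or XPO followed by a digit, or when it was TPR, POM121, NDC1, RAE1, RAN, TNPO1, TNPO2 or TNPO3. This gave 53 of the 14528 named genes in the table. Of these, 48 encode nucleoporins, transport receptors or Ran and are described as the nuclear pore and transport genes. The other 5 matched by symbol only and are a pseudogene, an antisense RNA, a divergent noncoding RNA and a pair of paralogs, given apart below. Values are FPKM (fragment counts divided by transcript length and by the library's mapped reads), summed over the listed transcripts of a gene, so levels can be compared between genes. With 1 FPKM value per condition, no test was run on these values and no error is given, and a difference is described by its size. The authors' own test results in the table were not used. A gene was called lower or higher in hypoxia when it differed by at least 1.5-fold on the log2(FPKM + 0.1) scale, which understates changes of weakly expressed genes.

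Nuclear pores are stacks of protein rings. An outer ring (the Y-shaped complex) lies on both faces of the envelope, an inner ring lines its middle, and nucleoporins rich in phenylalanine-glycine repeats fill the central channel, with filaments on the cytoplasmic side and a basket on the nuclear side. Proteins with a classical nuclear localization signal are bound by an importin alpha (KPNA genes), which is carried through the pore by importin beta (KPNB1), while other importins, transportins and exportins bind their cargo directly. Direction is set by the small GTPase Ran, which is kept in its GTP form in the nucleus by RCC1 and turned to its GDP form in the cytoplasm by RANGAP1 with RANBP1. Importins release cargo on meeting Ran-GTP, and exportins bind cargo together with it.

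The FPKM values of all listed transcripts summed to 536005 in normoxia and 458431 in hypoxia, so scaling the columns to equal sums would raise every log2 change by about 0.23. The transcript for the hypoxia marker CA9 was at 0.694 FPKM in normoxia and 21.6 in hypoxia, and ADM, VEGFA and EGLN3 were also higher, as the labels state. Of 8 markers of squamous epithelial cells, 6 were listed, at 5.10 to 398 FPKM in normoxia. Of 11 markers of blood cells, endothelium and fibroblasts, 3 were listed, and CDH5 was the only one above 0.5 FPKM, at 4.78 in normoxia and 2.83 in hypoxia. Across the table, 12106 named genes had a mean of at least 0.5 FPKM over the conditions, and their median log2 change was -0.07.

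Most nuclear pore and transport genes were lower in hypoxia, by small amounts. Among the 47 past this FPKM limit, the median log2 change was -0.31, and 41 (87.2%) lay below 0 against 56.4% of all genes. Of the 47, 8 (17.0%) were lower by at least 1.5-fold, against 11.2% of all genes. They were the importins IPO4 and TNPO2, the importin alphas KPNA2 and KPNA4, the nucleoporins NUP35, NUP42 and NUP88, and RAN. The membrane nucleoporin NUP210 was the only one higher by that amount, against 9.95% of all genes. The scaling of the columns bears on these counts. With equal FPKM sums, 32 of the 47 lay below 0 and 15 above it (41 and 6 without that scaling), and 3 (IPO4, KPNA2 and NUP35) were lower by at least 1.5-fold, 6.38% of the group against 5.01% of all genes, while NUP210 and NUP214 were higher. The group's median minus that of all genes was -0.24 with either scaling. Scaling adds nearly the same amount to every log2 change, so this difference could hardly move and is no check on it. In a bulk sample, fewer cells with a transcript and less of it per cell cannot be told apart.

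**Figure D1:**
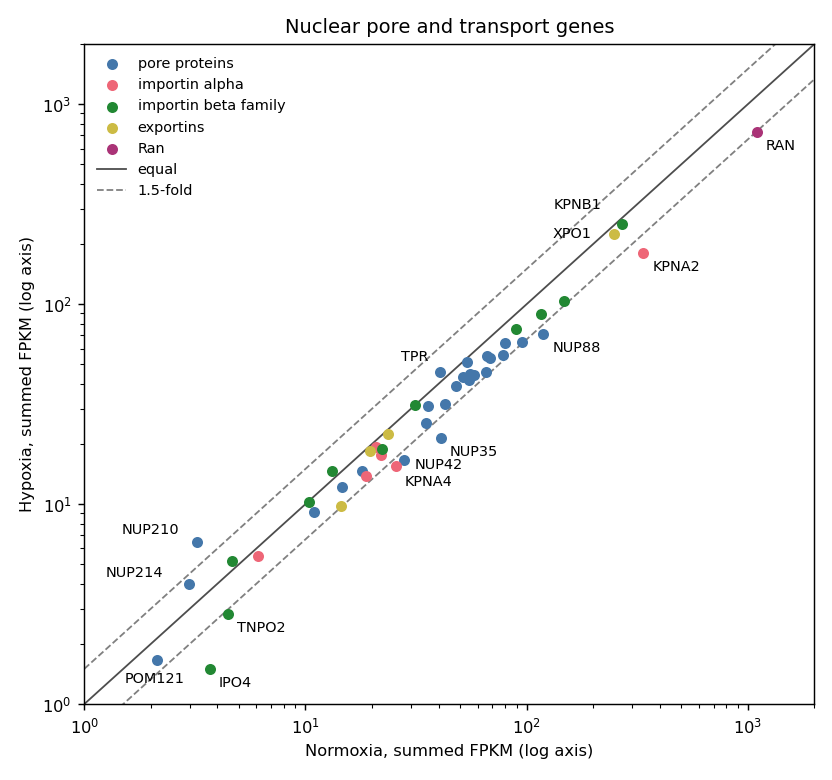
Summed FPKM in hypoxia against normoxia for the 47 nuclear pore and transport genes with a mean of at least 0.5 FPKM, on log axes, 1 point per gene and 1 value per condition. The solid line marks equal values and the dashed lines a 1.5-fold difference; most points lie just under the solid line, from POM121 at 2.13 FPKM to RAN at 1099.65 FPKM in normoxia, and NUP210 lies above the upper dashed line.

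The level of a gene moved with its change. Across the whole table, the median log2 change was lower in each higher range of expression. The nuclear pore and transport genes were more strongly expressed than most, with a median of 31.3 FPKM over both conditions against 9.23 for all genes. The values by range are without scaling to equal FPKM sums, which would raise each log2 change by about 0.23. Of the 1484 genes with a mean of at least 60 FPKM, 80.2% lay below 0 with a median log2 change of -0.28, and the 13 pore and transport genes at that level had a median of -0.38. Between 20 and 60 FPKM the medians were -0.31 for 18 members and -0.17 for 2387 genes, and between 5 and 20 FPKM they were -0.26 for 10 members and -0.06 for 3796 genes. In the lowest range the 6 members had a median of -0.10 and the 4439 genes one of 0.09. The group's median thus lay 0.09 to 0.20 below that of all genes of like level. This was a smaller distance than without regard to level, and no test of it was made. Counts moved with level too. From the lowest range to the highest, 9.10%, 10.7%, 12.4% and 17.3% of all genes were lower by at least 1.5-fold. Of the members, 2 of 6, 0 of 10, 3 of 18 and 3 of 13 were. Below 0 lay 42.7%, 56.1%, 67.7% and 80.2% of all genes, against 3, 9, 16 and 13 of these members.

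**Figure D2:**
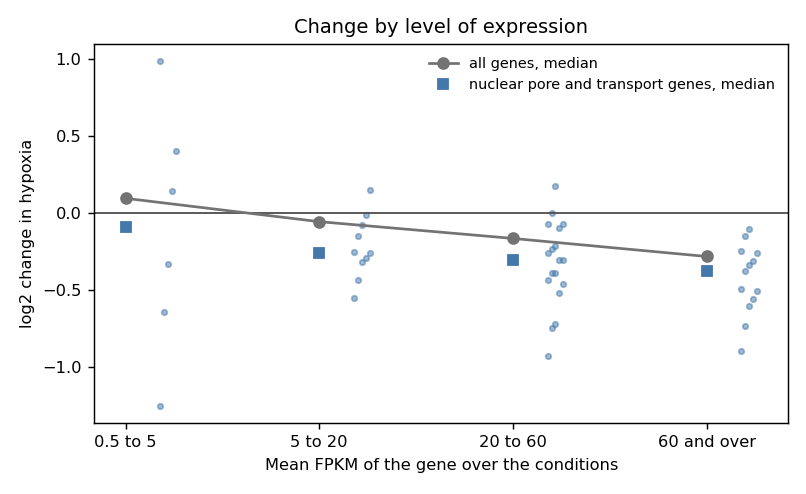
Median log2 change in hypoxia by mean FPKM, for all genes (grey circles) and for the nuclear pore and transport genes (blue squares), with each of the 47 genes as a small point. Both medians are lower at higher FPKM, and in every range the squares lie below the circles, at -0.38 against -0.28 for 60 FPKM and over.

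In the outer ring, the 6 NUP genes all lay below 0, against 56.4% of all genes, with log2 changes from -0.56 to -0.26, and none was lower by 1.5-fold, against 11.2%. SEH1L, a subunit of the same ring whose symbol the rule does not take, was at -0.88. NUP37, a peripheral subunit of the Y-shaped complex and the most abundant of them, was at 94.9 FPKM in normoxia and 64.3 in hypoxia (log2 change -0.56), just short of the 1.5-fold limit. The scaffold subunits NUP107 and NUP133, which form the stalk of the complex, were at 79.7 and 55.6 FPKM in normoxia and at 64.1 and 44.9 in hypoxia. NUP85 was lower by 1.38-fold and NUP160 by 1.23-fold. NUP160 had the lowest level of the ring, 18.0 FPKM in normoxia and 14.7 in hypoxia, so transcripts of subunits that assemble together differed several-fold in level.

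The inner ring was less even. NUP35, which joins the ring to the membrane, was at 40.9 FPKM in normoxia and 21.4 in hypoxia, lower by 1.91-fold with a log2 change of -0.93 (chr2:183982241-184026408, GRCh37). Its scaffold partners differed less. NUP155 was at 66.3 and 55.2 FPKM (-0.26), and NUP93, the anchor of the channel proteins, at 54.7 and 41.6 (-0.39). NUP205 and NUP188, a pair of large related scaffold proteins, had log2 changes of -0.08 and -0.26. Among the 5 genes of the ring, the distance between NUP35 and NUP205 was therefore larger than that between any of the 6 NUP genes of the outer ring.

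The 3 channel nucleoporins were lower by similar amounts, with log2 changes of -0.39 for NUP54, -0.34 for NUP58 and -0.26 for NUP62. NUP58 was the most abundant, at 68.5 FPKM in normoxia and 54.1 in hypoxia. NUP62 was at 10.9 and 9.14 FPKM, and its locus overlaps that of ATF5 in the table, so reads may have been shared between them. NUP98, whose gene encodes both a repeat-rich nucleoporin and, in a longer precursor, an outer ring subunit, was at 42.8 FPKM in normoxia and 31.6 in hypoxia (-0.44).

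The 4 genes of the cytoplasmic side differed in direction, with 3 below 0 and 1 above. NUP88 was at 119 FPKM in normoxia and 71.2 in hypoxia (log2 change -0.74), and NUP42, a partner of the mRNA export factor GLE1, at 27.9 and 16.6 FPKM (-0.74). NUP214, which binds NUP88 in a common subcomplex and docks exportins, was higher, at 2.98 and 3.97 FPKM (0.40, or 1.32-fold). RAE1, an mRNA export factor that binds NUP98, was at 65.6 FPKM in normoxia and 45.7 in hypoxia (-0.52). NUP88 lies at chr17:5262963-5323484 and NUP42 at chr7:23221460-23240630 (GRCh37). NUP88 shares its locus in the table with C1QBP and RPAIN, which were lower too, with log2 changes of -1.20 and -0.63, and the part of shared reads in its value was not tested.

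Among the membrane nucleoporins, NDC1 was at 78.2 FPKM in normoxia and 55.4 in hypoxia (-0.50), and NUP210 at 3.24 and 6.50 FPKM, a log2 change of 0.98. NUP210 was listed with 1 transcript at chr3:13357735-13461822 (GRCh37, minus strand), and its change lay at percentile 96.6 of all genes with a mean of at least 0.5 FPKM. Its log2 change was 0.82 with a pseudocount of 1. POM121 was at 2.13 and 1.67 FPKM, and its near-identical copy POM121C at 1.23 and 1.24, so how reads were divided between the copies can decide both values. In the nuclear basket, TPR, its main structural protein, was higher, at 40.7 FPKM in normoxia and 45.8 in hypoxia (0.17), while NUP50 and NUP153 had log2 changes of -0.31 and -0.21.

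The importin alphas, the adaptors that read classical nuclear localization signals, differed widely in level and in change. KPNA2 was at 336 FPKM in normoxia and 181 in hypoxia, 1.86-fold lower (log2 change -0.90), at chr17:66031752-66043480 (GRCh37, plus strand). KPNA4 (chr3:160212795-160283359) was at 25.6 and 15.5 FPKM (-0.72), KPNA3 at 18.8 and 13.8 (-0.44), and KPNA6 at 22.0 and 17.6 (-0.32). KPNA5 and KPNA1 were nearly level, with log2 changes of -0.15 and -0.10, and KPNA7 was below the limit, at 0.143 FPKM in normoxia and 0.175 in hypoxia. KPNA2 held 78.3% of the summed importin alpha FPKM in normoxia and 71.5% in hypoxia, and its difference of 156 FPKM made up 87.9% of the 177 FPKM between the sums of the 6 importin alphas past the limit. KPNA1 went from 4.83% to 7.66% of the summed importin alpha FPKM. The order of levels changed below KPNA2: KPNA4 was next in normoxia and KPNA1 in hypoxia. Neither difference was set against a replicate spread here.

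KPNB1, the carrier that all importin alphas share, was at 271 FPKM in normoxia and 252 in hypoxia (-0.10), and so differed less than its main adaptor. Among the 11 genes of the importin beta family, the log2 changes ran from -1.25 to 0.15 with a median of -0.23. IPO4, an importin of histones and ribosomal proteins, had the largest decrease of the 47 genes, at 3.69 FPKM in normoxia and 1.49 in hypoxia (chr14:24649425-24658075, GRCh37, minus strand), and its 2.38-fold difference was the only one past 2-fold. Its log2 change was -0.91 with a pseudocount of 1, short of 2-fold, and it shares its locus in the table with REC8. TNPO2 (chr19:12810015-12834825), a close relative of TNPO1, was at 4.45 and 2.82 FPKM (-0.64). The strongly expressed IPO5, IPO7 and TNPO1 were at 147, 89.1 and 116 FPKM in normoxia, with log2 changes of -0.51, -0.25 and -0.38. IPO11 was at 22.2 FPKM in normoxia and 18.9 in hypoxia, and IPO9 had a log2 change of -0.01. TNPO3, the importin of phosphorylated SR splicing factors, was at 31.3 FPKM in both conditions. IPO8 and IPO13 were slightly higher, at 13.2 and 4.68 FPKM in normoxia and 14.6 and 5.17 in hypoxia.

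Exportins differed little. XPO1, the receptor of leucine-rich nuclear export signals, was at 249 FPKM in normoxia and 223 in hypoxia (-0.15), and XPO6 and XPO7 had log2 changes of -0.08 and -0.07. XPO4 was at 14.4 and 9.82 FPKM (-0.55), just short of the 1.5-fold limit. The further receptor XPOT, outside the group, was at 138 FPKM in normoxia and 101 in hypoxia (-0.44). With equal FPKM sums the changes of XPO1, XPO6, XPO7, KPNB1, IPO9, KPNA1, KPNA5, NUP153 and NUP205 lay above 0, so no direction is given for these 9 genes.

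**Figure D3:**
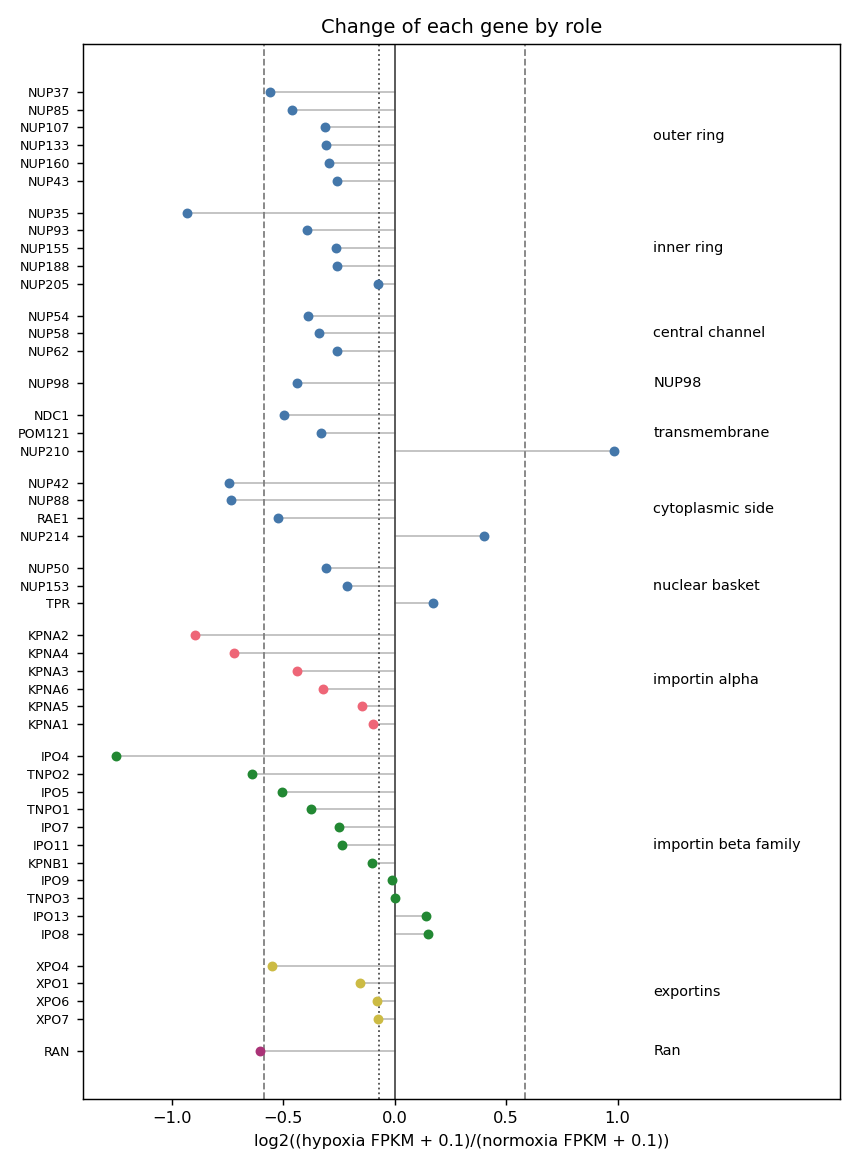
Change of each of the 47 genes in hypoxia by its role, as log2((hypoxia FPKM + 0.1)/(normoxia FPKM + 0.1)), 1 point per gene. The solid line marks 0, the dotted line the median of all genes (-0.07) and the dashed lines a 1.5-fold difference; 8 genes lie left of the lower dashed line, from RAN at -0.60 to IPO4 at -1.25, and NUP210 alone lies right of the upper one, at 0.98.

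RAN was the most abundant of the group, with 1099.65 FPKM in normoxia and 724 in hypoxia (chr12:131356582-131362223, GRCh37, plus strand). Its log2 change of -0.60, or 1.52-fold lower, lay just inside the 1.5-fold limit, which it no longer reached when the changes were centred on the median of all genes (-0.53). Several regulators of its cycle were lower as well. RCC1, the nucleotide exchange factor on chromatin, was at 25.1 FPKM in normoxia and 10.0 in hypoxia (-1.31), and RANBP1 at 476 and 277 (-0.78). RANGAP1, named here after its values were seen, was at 11.5 and 7.43 FPKM (-0.62). These were the 3 genes lower by at least 1.5-fold among the 10 listed regulators and further receptors, against 11.2% of all genes, and RANBP3 and NUTF2 of that list had log2 changes of -0.07 and -0.46. RANGAP1 no longer reached the limit after centring or with a pseudocount of 1, and with equal FPKM sums RCC1 alone of RAN and these 3 genes did. CSE1L, which returns importin alpha to the cytoplasm, was at 401 FPKM in normoxia and 316 in hypoxia (-0.35).

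**Figure D4:**
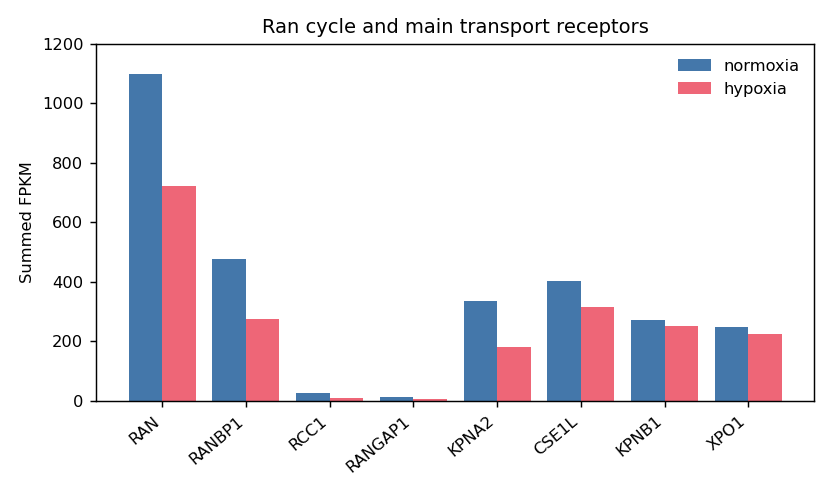
Summed FPKM of Ran, its regulators and the most abundant transport receptors in normoxia (blue) and hypoxia (red), 1 value per condition, without error bars because single replicates were not analysed here. RAN goes from 1099.65 to 724 FPKM and KPNA2 from 336 to 181, while KPNB1 and XPO1 stay within 1.11-fold.

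A wider set of nuclear transport genes outside the group was read from lists of other pore proteins, Ran regulators with further receptors, and mRNA export factors. These lists were chosen with earlier results of these data known. The set held 37 genes, 36 of them listed, with a median log2 change of -0.38. Of the 36, 11 (30.6%) were lower by at least 1.5-fold and none higher, against 11.2% and 9.95% of all genes. These shares were not matched for level, and the median of their mean FPKM was 31.2 against 9.23 for all genes. Among the other pore proteins, SEH1L and SEC13, subunits of the outer ring, were at 125 and 41.5 FPKM in normoxia and at 68.2 and 28.2 in hypoxia, and SEH1L was the only one of 8 past 1.5-fold. RANBP2, the main protein of the cytoplasmic filaments, had a log2 change of -0.30. Against 11.2% of all genes, 7 of 18 mRNA export genes (38.9%) were lower by 1.5-fold. These included DDX19A (21.0 and 11.8 FPKM), a helicase at the cytoplasmic face of the pore, NXT1 (64.8 and 37.6 FPKM), the partner of the export receptor NXF1, and the TREX helicase DDX39B (138 and 84.8 FPKM). Of the 18 mRNA export genes, 15 lay below 0 and 3 above it. SEM1 and MCM3AP had log2 changes of 0.10 and 0.08, and PCID2 and ENY2 had -0.53 and -0.23. SNUPN, the importin adaptor of spliceosomal snRNPs, had a log2 change of 0.26. With equal FPKM sums, 3 of the 36 genes were lower by 1.5-fold, against 5.01% of all genes.

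As a set, genes of the nuclear envelope lay near all genes taken without regard to level. Single genes differed in both directions, with log2 changes from -0.57 to 1.08. Of 11 listed genes for the lamina and the envelope's membrane proteins, 6 (54.5%) lay below 0 against 56.4% of all genes. The set's median log2 change was -0.07 as in all genes, and none was lower and 1 higher by 1.5-fold, against 11.2% and 9.95%. Level was not matched in this comparison, and the median of the set's mean FPKM was 25.2 against 9.23 for all genes. In the range that holds this level, 20 to 60 FPKM, 67.7% of all genes lay below 0, around a median of -0.17. The B-type lamin LMNB1, the lamin B receptor LBR and TMPO were at 82.1, 83.2 and 215 FPKM in normoxia, with log2 changes of -0.51, -0.57 and -0.56. SYNE2, which ties the outer membrane to the cytoskeleton, was at 20.5 FPKM in normoxia and 43.5 in hypoxia (1.08), and SUN2, its partner in the inner membrane, at 2.83 and 3.62 (0.35).

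Single transcripts showed larger differences than the sums. The 48 genes had 83 listed transcripts, 73 of them past the limit of 0.5 FPKM. Among those, 16 were lower and 3 higher by at least 1.5-fold, 7 of the 16 in genes whose sum did not pass, where 14.3% of all 18190 such transcripts were lower and 10.5% higher. In 19 genes at least 2 transcripts passed 0.5 FPKM, and in 2 of these, NUP98 and TNPO2, the share of the leading transcript moved by at least 10 percentage points, as in 10.4% of 3753 such genes in the table.

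The sum of NUP98 hid uneven changes of its 4 transcripts, the largest in NM_139131. NM_139131 was at 9.40 FPKM in normoxia and 1.89 in hypoxia, 4.77-fold lower (-2.25), and its share of the gene went from 21.9% to 5.99%. The leading transcript NM_016320 was almost level, at 19.4 and 19.0 FPKM, and its share went from 45.4% to 60.3%. NM_005387 was lower too, at 11.8 FPKM in normoxia and 8.60 in hypoxia (-0.45), and NM_139132 was at 2.20 and 2.04. The difference of NM_139131, 7.50 FPKM, made up 66.7% of the difference in the gene's sum. NUP98 shares its locus with PGAP2, and the part of shared reads was not tested.

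The shares of the TNPO2 transcripts NM_001136195 and NM_013433 shifted and were close to each other in hypoxia. NM_001136195 was at 3.33 FPKM in normoxia and 1.23 in hypoxia (-1.37), and its share went from 74.9% to 43.5%. NM_013433 was at 0.759 and 1.36 FPKM (0.77), and its share went from 17.1% to 48.3%. In NUP58, the minor transcript NM_001008564 was higher, at 1.37 and 3.29 FPKM (1.21), while NM_014089, with 98.0% of the sum in normoxia and 93.9% in hypoxia, was lower (-0.40). Shares of overlapping transcripts are estimates of how reads were assigned, and their error was not analysed here.

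**Figure D5:**
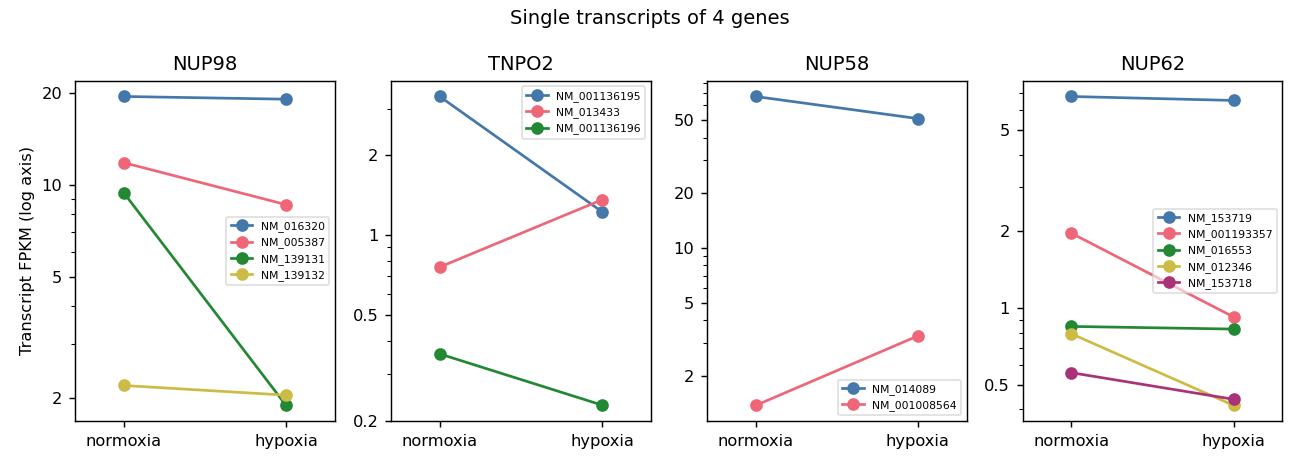
FPKM of each listed transcript of NUP98, TNPO2, NUP58 and NUP62 in normoxia and hypoxia, on log axes that differ between panels, with 1 line per transcript. NM_139131 of NUP98 goes from 9.40 to 1.89 FPKM while the gene's leading transcript goes from 19.4 to 19.0, and the lines of TNPO2 NM_001136195 and NM_013433 cross.

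Promoters of the members are described here, and no link between their sequences and the changes was tested. Sequences came from a table of RefSeq promoters (GRCh38.p14), in which 42 of the 47 genes and 7 of the 8 lower ones were matched. KPNA4, KPNA5, KPNB1, NUP43 and XPO7 were not matched. A gene counted as having a motif when any promoter listed for it held the motif. In the 250 bases before the start, the E-box CACGTG, which MYC family factors bind and which reads the same on both strands, was found in 3 of the 7 lower genes (IPO4, RAN and TNPO2), in 8 of the 42 (19.0%), in 11.0% of the 9671 genes with a mean of at least 0.5 FPKM, and in 7.73% of all 27305 genes. The hypoxia response element core was searched on both strands as ACGTG, which every CACGTG contains, and as GCGTG. The former was found in 15 of the 42 genes (35.7%) and 5 of the 7, against 28.9% of expressed genes, and the latter in 24 (57.1%) and 3 of the 7, against 53.2%. CCAAT, the box bound by NF-Y, was found in 19 of the 42 (45.2%) and 5 of the 7, against 42.5%. These are matches of letters, and with 7 genes the shares are coarse.

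The last 120 bases before the start are given 5′ to 3′ on the gene's strand. For IPO4, RAN and TNPO2, the first listed promoter that held CACGTG is shown. Sequences of the lower genes NUP35, NUP42 and NUP88, which held no CACGTG, are not shown. The motif was also found in IPO7, KPNA3, NUP188, NUP50 and XPO1, which were not lower by 1.5-fold. Capitals mark CACGTG in IPO4 (chr14:24188817-24188936, minus strand), RAN (chr12:130871946-130872065, plus strand) and TNPO2 (chr19:12723933-12724052, minus strand), and ACGTG and CCAAT in KPNA2 (chr17:68035615-68035734, plus strand). The window of NUP210 (chr3:13420323-13420442, minus strand), the gene that was higher, had no capitals to mark, while GCGTG, which is not capitalized in any of these sequences, was found in the 250 bases before the start of NUP210, IPO4 and RAN.
IPO4: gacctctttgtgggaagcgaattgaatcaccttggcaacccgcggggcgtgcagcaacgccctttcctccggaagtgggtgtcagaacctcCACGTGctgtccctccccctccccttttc
RAN: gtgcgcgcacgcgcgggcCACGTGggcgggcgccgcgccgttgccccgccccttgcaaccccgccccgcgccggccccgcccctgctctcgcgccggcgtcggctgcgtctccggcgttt
TNPO2: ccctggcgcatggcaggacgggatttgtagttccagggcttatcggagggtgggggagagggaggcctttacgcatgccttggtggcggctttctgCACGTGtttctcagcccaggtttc
KPNA2: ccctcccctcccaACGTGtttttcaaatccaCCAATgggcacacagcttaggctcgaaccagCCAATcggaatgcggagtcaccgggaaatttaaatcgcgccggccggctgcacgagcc
NUP210: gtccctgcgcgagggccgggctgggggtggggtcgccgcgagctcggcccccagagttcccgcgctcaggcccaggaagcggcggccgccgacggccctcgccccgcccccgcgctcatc

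In IPO4 the E-box began 29 bases and in TNPO2 24 bases before the start, and in RAN 102 bases before it. KPNA2 had no CACGTG, and its ACGTG lay 107 bases before the start, ahead of CCAAT boxes at 89 and 58 bases.

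Of the 5 genes that matched by symbol alone, 3 had a mean of at least 0.5 FPKM. NUP50-DT, a noncoding RNA that starts next to NUP50 on the other strand, was at 11.9 FPKM in normoxia and 7.08 in hypoxia (-0.74), while NUP50 itself was at 48.1 and 38.9 FPKM (-0.31). NUP62CL, a protein-coding paralog of NUP62, was at 7.43 and 7.71 FPKM. The pseudogene IPO5P1, which may take up reads of IPO5, was at 3.12 and 2.62 FPKM, and NUP210L and IPO9-AS1 were below 0.5 FPKM in both conditions. With these genes included, 9 of 50 genes past the FPKM limit (18.0%) were lower by 1.5-fold, against 11.2% of all genes.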

How the data were processed

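Polyadenylated RNA from 8 samples, 4 in normoxia and 4 in hypoxia by their source labels (the treatment text names 0.5% oxygen for both), was sequenced as stranded libraries. The authors aligned reads to hg19 with STAR 2.3.0.1 and quantified RefSeq transcripts with Cufflinks 2.1.1 at standard parameters, and whether counting used strand is not given in the sources used here. The deposited values used are FPKM, 1 per transcript and condition over the 4 replicates, so depth and spread per sample were not analysed here. The table also holds the authors' own comparison (a log2 fold change, test statistic, p-value and q-value), which was not used.

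Transcript FPKM were summed by symbol, which was found for 24293 of 24812 transcripts (97.9%) in RefSeq GRCh38.p14 names. Changes are log2 of hypoxia minus normoxia after adding 0.1, for genes with a mean of at least 0.5 FPKM. A difference of 1.5-fold was called, without a test. Gene positions came from GENCODE 44 on GRCh37, and 12 of the genes shared a locus in the table with another named gene. Genes named were the importin alphas, the 12 largest changes, the most abundant gene of each role, genes next to the limit or higher in hypoxia, genes with a moved transcript share, and the extremes of the other lists. Any other gene was named after its values were seen. Members, lists and limits were chosen with earlier results of these data known. The scripts were checked on simulated data. Alternatives were other pseudocounts, FPKM limits, fold limits, scalings and the leading transcript alone. Python 3.11.15, numpy 2.4.6, pandas 2.3.3 and matplotlib 3.10.9 were used. 1 gene with a matching name is not reported here.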

Additional observations from a re-analysis of the deposited data

How the results depend on the processing

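The median log2 change of the 47 genes was -0.085 with equal FPKM sums, where that of all genes was 0.15. The number lower in hypoxia, 8 at 1.5-fold, was 27 (57.4%) at a 1.2-fold limit, 1 (2.13%) at 2-fold and 3 (6.38%) with equal sums. Of all genes, 11.2% were lower at 1.5-fold, 33.0% at 1.2-fold, 2.62% at 2-fold and 5.01% with equal sums. The number higher, 1 at 1.5-fold, was 2 at a 1.2-fold limit and with equal sums, and 0 at a 2-fold limit or with a limit of 5 FPKM on the mean. Among the 36 other nuclear transport genes, 11 were lower at 1.5-fold, 24 at 1.2-fold, 1 at 2-fold and 3 with equal sums. The shares of all genes given above apply to these counts as well. These differences between settings follow from the limits and the scaling themselves. Centring on the median of all genes left 6 lower, without RAN and TNPO2, and a pseudocount of 1 left 7, without TNPO2. Of all genes, 8.76% were lower after centring and 8.52% with a pseudocount of 1. Including all 53 matches, an alternative chosen after seeing the data, gave 9. No paired analysis was possible because the table holds 1 value per condition, and leaving out single replicates was not run for the same reason.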
